A study of Polistes metricus with 16 samples.

Results

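A module of 100 transcripts that stood high in worker-reared larvae and also high in larvae on restricted food was taken from the head transcriptome of the paper wasp Polistes metricus. The members were the 100 top-ranked of 24205 transcripts with a mean level of at least 1 CPM (a count scaled to its library's total, with TMM factors), out of 74517 transcripts in the table. Each transcript was ranked by the smaller of 2 t values on log2(CPM + 0.5), the difference of 2 group means over its standard error. One t value was for worker-reared minus foundress-reared larvae and the other for restricted minus ad libitum larvae. The members were thus selected on the measured levels in these 4 groups, and differences within either pair are given as a description, with no test.

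All 16 libraries came from heads of single female larvae in the last instar, with 4 larvae in each group. Worker-reared larvae, on the queen path, were collected in the field in Iowa in late summer of 2010. Foundress-reared larvae, on the worker path, came from the same place in late spring of that year. Restricted larvae belonged to nests from North Carolina held in a laboratory in 2009 and given prey every 3 days, and ad libitum larvae to such nests given prey every 1 day. Season thus differed together with the rearing adults, and field larvae differed from laboratory larvae in year, place and population at once.

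In paper wasps the castes differ little in form, and a female's path is influenced by how she is fed as a larva. Foundresses raise the first brood alone, and those daughters mostly become workers. Later brood is fed by these workers and includes the next season's reproductive females, which build larger reserves before winter. In other social insects, insulin and TOR signalling, juvenile hormone and storage proteins link larval feeding to caste. The table pairs no transcript identifier with a gene name, so no member could be placed in these pathways and each is described by its identifier.

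Library totals ran from 30084017 to 37626473 counts in worker-reared, 28359372 to 32569316 in foundress-reared, 29487724 to 33561419 in restricted and 29048017 to 33471057 in ad libitum larvae. The labels do not say whether larvae of a group were nest mates, so errors and tests reflect the variation among the larvae sampled. Markers of muscle, nervous tissue, silk gland or blood cells could not be read, and in whole heads a smaller share of a cell type cannot be told apart from less RNA per cell. Restricted replicate 4 stood apart from the other restricted larvae. Values without it are given beside the results it moved.

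Members differed modestly within each pair. The median difference was 0.53 on the log2(CPM + 0.5) scale for worker-reared minus foundress-reared larvae, with members from 0.17 to 1.40. For restricted minus ad libitum larvae the median difference was 0.62, with members from 0.19 to 1.31, and it was 0.70 without restricted replicate 4. Over all ranked transcripts the corresponding medians were -0.03 and -0.02. The restricted minus ad libitum difference was the larger one in 65 members, and in 75 members once restricted replicate 4 was left out.

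**Figure D1:**
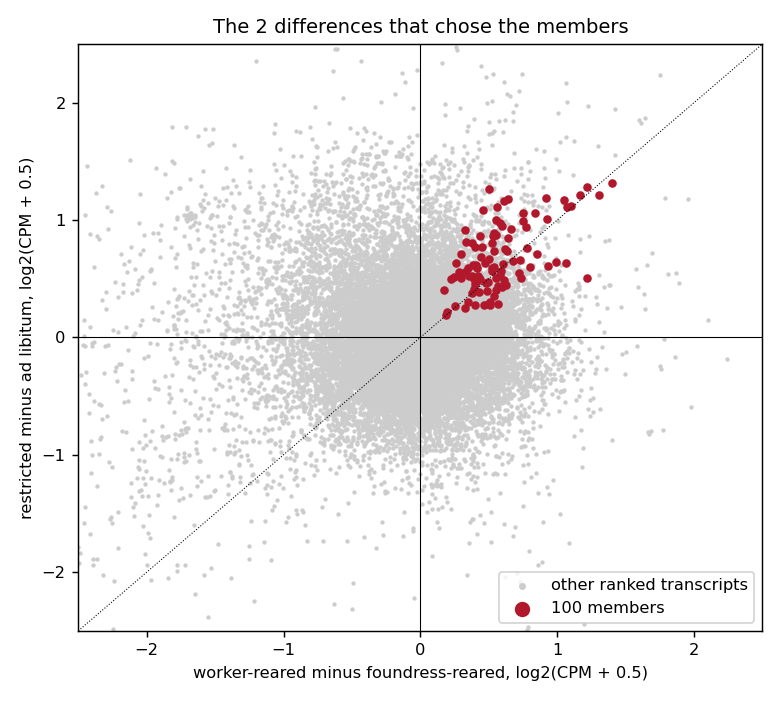
Each point is a transcript, with the worker-reared minus foundress-reared difference on the x axis and the restricted minus ad libitum difference on the y axis, both of mean log2(CPM + 0.5). The 100 members (red) lie at positive values on both axes because the ranking required it, 65 of them above the dotted line of equal differences, and grey transcripts beyond the axes are not drawn.

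The CPM of all 4 worker-reared larvae lay above that of all 4 foundress-reared larvae in 86 members, a separation found in 5.16% of all ranked transcripts. All 4 restricted larvae lay above all 4 ad libitum larvae in 69 members, against 2.57% of ranked transcripts. With restricted replicate 4 left out, that number was 93. Both pairs were separated in 58 members, against 0.335% of ranked transcripts, and neither pair in 3. In 34 members the 8 worker-reared and restricted larvae all lay above the 8 foundress-reared and ad libitum larvae, as they did in 0.182% of ranked transcripts. Since the ranking used these differences, the counts describe how cleanly the members were chosen and nothing more. At the t value of the last member, 2.79, a further 157 transcripts passed in the mirror direction, high in foundress-reared and ad libitum larvae. Of the 24205 ranked transcripts, 13 passed with worker-reared and ad libitum larvae high, and 9 with foundress-reared and restricted larvae high. These counts rest on the same t values that chose the members, and no test was made of them. Without restricted replicate 4 the 4 directions held 249, 310, 45 and 24 transcripts at the same t value.

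**Figure D2:**
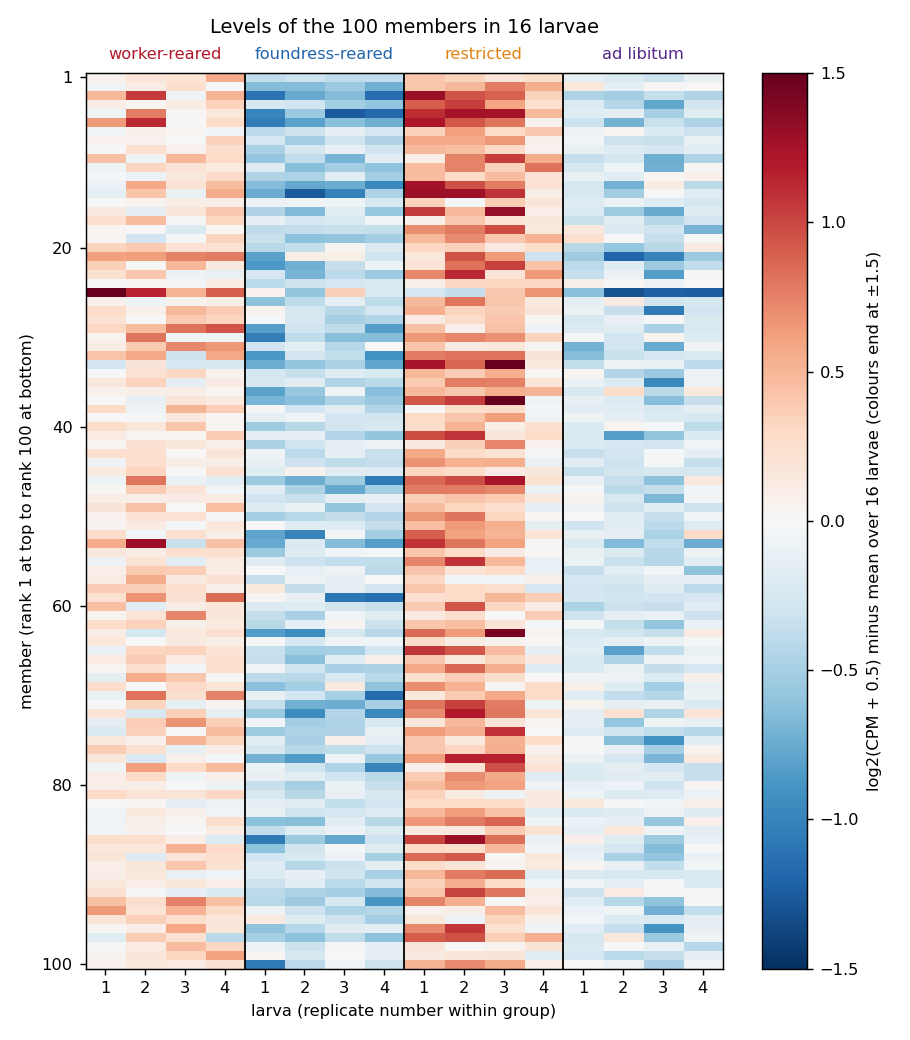
Rows are the 100 members in order of rank and columns the 16 larvae by group. Colour gives log2(CPM + 0.5) minus the transcript's mean over all larvae, and restricted replicate 4 is paler than the other 3 restricted larvae, with a mean of 0.13 against 0.52 to 0.57.

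PmetTSAr1.1-021993 ranked first. It measured 4.41, 4.84, 4.91 and 6.41 CPM in worker-reared larvae, against 3.14, 3.29, 3.1 and 3.14 CPM in foundress-reared larvae. Restricted larvae had 5.74, 5.43, 4.85 and 5.17 CPM and ad libitum larvae 3.8, 3.55, 3.29 and 3.86 CPM. The 8 high values did not overlap with the 8 low ones, yet the folds were small, at 1.53 for worker-reared over foundress-reared and 1.41 for restricted over ad libitum larvae. Its t values of 5.69 and 7.44 went with a narrow spread, such as the SD of 0.0862 CPM among foundress-reared larvae. That SD is below what counting error alone would give at this level and depth. Ranking by t favours such small spreads, so the first rank is not read as a steadier level of this transcript.

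PmetTSAr1.1-008776 ranked second. Its levels were 14.6, 16.5, 18.2 and 15.1 CPM in worker-reared and 9.51, 9.48, 10.2 and 9.01 CPM in foundress-reared larvae. In the laboratory it had 20.3, 21.4, 26.5 and 22.3 CPM under restriction and 17, 13.7, 15.4 and 15.1 CPM in ad libitum ones. Each pair was separated, but ad libitum larvae reached the levels of worker-reared larvae, so the transcript had no single level for the high groups. Here restricted replicate 4, at 22.3 CPM, lay among the other restricted larvae.

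PmetTSAr1.1-007756 and PmetTSAr1.1-007757, which held ranks 3 and 6 and carry consecutive identifiers, were among the 4 members with the largest differences when the smaller difference of each member was compared. PmetTSAr1.1-007756 measured 7.39, 11.1, 4.81 and 7.46 CPM in worker-reared larvae, against 2.11, 2.82, 3.07 and 2.05 CPM in foundress-reared larvae, a 2.65-fold difference. Restricted larvae had 13.3, 10.2, 9.84 and 6.59 CPM and ad libitum larvae 3.56, 3.41, 3.88 and 3.6 CPM, a 2.48-fold difference. All 8 high larvae were above all 8 low larvae, with restricted replicate 4 the lowest of its group. PmetTSAr1.1-007757 averaged 8.01 ± 2.93 CPM in worker-reared and 2.81 ± 0.384 CPM in foundress-reared larvae, with 9.57 ± 3.03 CPM under restricted and 3.7 ± 0.501 CPM under ad libitum feeding (SD, n = 4 each). The ratio of the first transcript's CPM to the second's ran from 0.692 to 1.19 over the 16 larvae, with a median of 0.969. Whether these are parts or forms of 1 gene cannot be read from the table, and they are not counted as separate genes here.

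PmetTSAr1.1-009276, at rank 4, was the more strongly separated in the laboratory. It measured 9.46, 10.5, 7.55 and 5.85 CPM in restricted larvae, against 4.16, 3.49, 2.61 and 3.91 CPM in ad libitum larvae. In the field it had 5.24, 4.95, 5.27 and 6.27 CPM in worker-reared and 4.02, 3.84, 3.22 and 3.05 CPM in foundress-reared larvae. The group means were 8.34 ± 2.06 CPM with restricted food against 3.54 ± 0.678 CPM with ad libitum food, and 5.43 ± 0.579 CPM in worker-reared larvae against 3.53 ± 0.473 CPM in foundress-reared larvae (SD, n = 4 each).

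PmetTSAr1.1-009293, at rank 5, had 3.24, 6.16, 3.47 and 3.88 CPM in worker-reared larvae, against 1.47, 2.16, 1.15 and 1.23 CPM in foundress-reared larvae. It had 7.96, 8.83, 8.83 and 4.96 CPM in restricted larvae, against 2.94, 3.04, 2.28 and 2.95 CPM in ad libitum larvae. The folds were 2.32 and 2.43, and again restricted replicate 4 was lowest of its group while staying above every ad libitum larva.

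The members at ranks 7, 8 and 10 had low levels. PmetTSAr1.1-018105 averaged 2.94 ± 0.163 CPM in worker-reared and 2.33 ± 0.204 CPM in foundress-reared larvae, with 4.1 ± 0.464 CPM under restricted and 2.63 ± 0.331 CPM under ad libitum feeding. PmetTSAr1.1-020142 averaged 3.42 ± 0.445 CPM in worker-reared and 2.27 ± 0.231 CPM in foundress-reared larvae, with 4.54 ± 0.832 CPM under restricted and 2.65 ± 0.323 CPM under ad libitum feeding. PmetTSAr1.1-014067 averaged 2.52 ± 0.494 CPM in worker-reared and 1.3 ± 0.301 CPM in foundress-reared larvae, with 3.33 ± 1 CPM under restricted and 1.3 ± 0.243 CPM under ad libitum feeding (SD, n = 4 each). Each of these pairs was separated without overlap. PmetTSAr1.1-003492, at rank 9, was far more abundant in counts, with 62.2, 73.3, 64.8 and 74.1 CPM in worker-reared larvae against 43.9, 51.2, 57.2 and 50.4 CPM in foundress-reared larvae. It had 86.7, 84.7, 75.2 and 64.4 CPM in restricted larvae against 57, 53.7, 51.9 and 55.2 CPM in ad libitum larvae, and its 8 high values again lay above its 8 low ones.

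**Figure D3:**
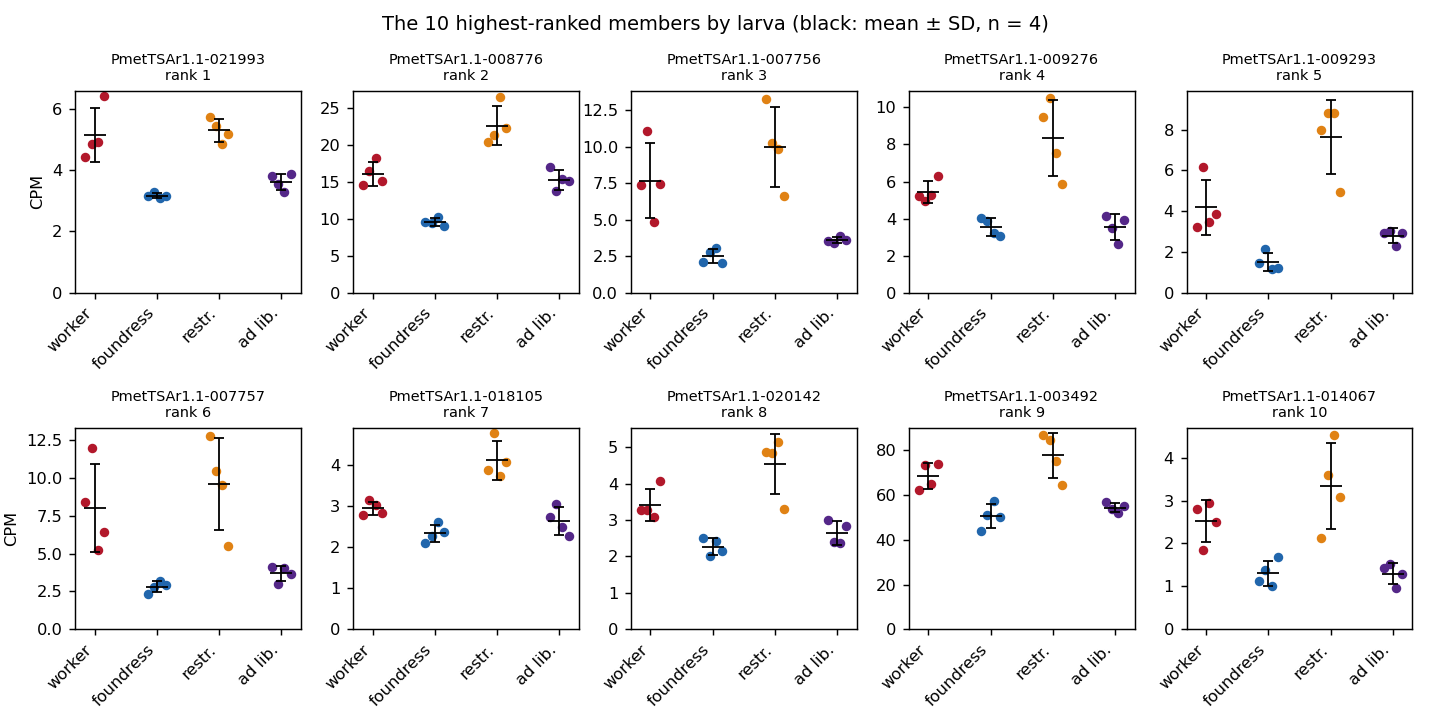
CPM of the 10 highest-ranked members in each larva, with group mean and SD in black (n = 4). In every panel both pairs are separated, and for 6 of the 10 transcripts restricted replicate 4, the rightmost orange point, is the lowest restricted larva.

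Most members were of low abundance. The median of the mean CPM over 16 larvae was 3.45 in the module, with a lower quartile of 2.04 and the top member at 229, while the median of all ranked transcripts was 7.65. Transcript lengths were not used, so these are shares of counts and not of molecules. PmetTSAr1.1-000495 had 206, 252, 196 and 238 CPM in worker-reared larvae, against 192, 176, 169 and 169 CPM in foundress-reared larvae. In the laboratory it had 364, 465, 310 and 201 CPM in restricted larvae, against 203, 173, 162 and 194 CPM in ad libitum larvae. The 3 restricted larvae at 310 CPM or more were above all others, while restricted replicate 4 fell inside the ad libitum range.

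PmetTSAr1.1-000803 averaged 171 ± 13.5 CPM in worker-reared and 128 ± 18.4 CPM in foundress-reared larvae, with 177 ± 26.7 CPM under restricted and 123 ± 21.9 CPM under ad libitum feeding. PmetTSAr1.1-002254 averaged 107 ± 15.7 CPM in worker-reared and 72.2 ± 10 CPM in foundress-reared larvae, with 104 ± 17.1 CPM under restricted and 75.7 ± 6.24 CPM under ad libitum feeding. PmetTSAr1.1-007236 averaged 75.4 ± 1.9 CPM in worker-reared and 56 ± 3.83 CPM in foundress-reared larvae, with 84.5 ± 14.4 CPM under restricted and 64 ± 3.78 CPM under ad libitum feeding (SD, n = 4 each). In all 3 the restricted larvae overlapped with the ad libitum larvae because restricted replicate 4 was low, at 143, 80.2 and 65.7 CPM. The worker-reared larvae did not overlap with the foundress-reared larvae in any of them.

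The members summed to 1436, 1443, 1517 and 1580 CPM in the worker-reared larvae, in ascending order, against 1041, 1063, 1071 and 1086 CPM in the foundress-reared larvae. Restricted larvae summed to 1340, 1899, 1945 and 2090 CPM, against 1024, 1108, 1195 and 1250 CPM in ad libitum larvae. The foundress-reared larvae were the tightest group, with an SD of 18.8 CPM, and the restricted larvae the widest, with an SD of 329 CPM, and the lowest of these 4 sums was that of restricted replicate 4.

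The end of the list shows how gradual the choice was. PmetTSAr1.1-008433, PmetTSAr1.1-008190 and PmetTSAr1.1-023735 held ranks 98, 99 and 100 with smaller t values of 2.80, 2.80 and 2.79. PmetTSAr1.1-013764, PmetTSAr1.1-030971 and PmetTSAr1.1-017093 followed outside it at 2.78, 2.78 and 2.77. PmetTSAr1.1-008433 averaged 1.94 ± 0.36 CPM in worker-reared and 1.4 ± 0.168 CPM in foundress-reared larvae, with overlap between them, with 1.75 ± 0.145 CPM under restricted and 1.34 ± 0.231 CPM under ad libitum feeding. PmetTSAr1.1-008190 averaged 14.3 ± 2.49 CPM in worker-reared and 10.8 ± 0.986 CPM in foundress-reared larvae, with 12.3 ± 1.42 CPM under restricted and 9.32 ± 0.751 CPM under ad libitum feeding. PmetTSAr1.1-023735 averaged 6.86 ± 0.341 CPM in worker-reared and 4.5 ± 1.33 CPM in foundress-reared larvae, with 8.83 ± 1.58 CPM under restricted and 5.53 ± 0.861 CPM under ad libitum feeding.

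PmetTSAr1.1-017093, although outside, averaged 7.22 ± 0.617 CPM in worker-reared and 5.63 ± 0.195 CPM in foundress-reared larvae, (SD, n = 4 each). Under restriction it measured 6.61, 6.51, 7.55 and 7.98 CPM, against 6.24, 5, 4.81 and 6.41 CPM with ad libitum food. All its 8 high values lay above its 8 low values. PmetTSAr1.1-013764 measured 13.7, 11.8, 13.8 and 6.39 CPM in restricted larvae, against 7.56, 7.01, 5.23 and 5.06 CPM with ad libitum food. PmetTSAr1.1-030971 measured 7.09, 9.76, 4.97 and 2.31 CPM in restricted larvae, against 1.32, 1.5, 1.6 and 2.22 CPM in ad libitum larvae. In both, the low value of restricted replicate 4 widened the spread that enters the restricted minus ad libitum t value. That t value set the rank of PmetTSAr1.1-013764, at 2.78. For PmetTSAr1.1-030971 it was 3.49, and the rank was set by the worker-reared minus foundress-reared t value of 2.78.

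The contrast of field with laboratory larvae was not used by the ranking, since it averages over both members of each pair. It was tested across all 36337 transcripts that passed the low-count filter, all 100 members among them. Of the members 78 had a negative log2 fold change, lower in field than in laboratory larvae, against 51.4% of all tested transcripts and 46.2% of the ranked ones that were tested. The median log2 fold change was -0.21 in the module and -0.01 over all tested transcripts. The ranking placed worker-reared above foundress-reared and restricted above ad libitum larvae, so that the order of the 4 means is partly fixed by it and is a description. It is set here beside the 5934 ranked transcripts in which both differences were positive. Those were matched to the members by sign only and not by the size of the t values, which also limits the order. The gaps between the shares are therefore not read as a trait of the module. The order restricted, worker-reared, ad libitum, foundress-reared, from highest to lowest mean, was found in 61 members (65 without restricted replicate 4), against 26.3% of those transcripts. The restricted mean was the highest in 75 members (81 without restricted replicate 4), against 61.5%, and the foundress-reared mean the lowest in 77, against 62.4%. The 5934 transcripts thus leaned towards higher laboratory levels too, with the worker-reared mean highest in 36.9% and the ad libitum mean lowest in 36.4%. In all members but PmetTSAr1.1-003336, which averaged 37.2 CPM in worker-reared and 40 CPM in ad libitum larvae, both high groups exceeded both low groups. No test was made of the module as a whole.

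**Figure D4:**
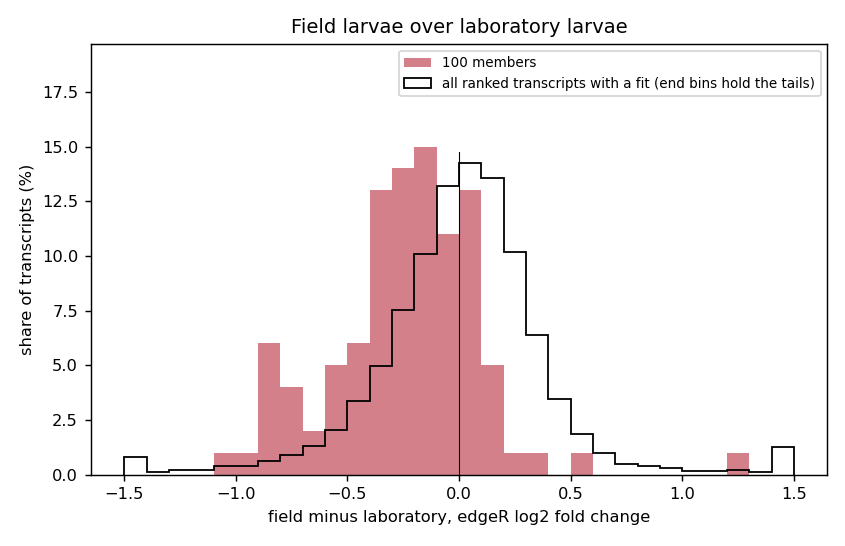
Histogram of the edgeR log2 fold change of field over laboratory larvae, as a share of transcripts per bin of 0.1, for the 100 members (red) and all ranked transcripts with a fit (black line). The members lie mostly left of 0, with a median of -0.21, whereas the ranked transcripts have a median of 0.03.

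With edgeR's quasi-likelihood test and Benjamini-Hochberg adjustment over all tested transcripts, 3 members were called lower in field larvae at an adjusted p under 0.05, where 0.688% of all transcripts were, and 1 member was called higher, where 0.292% were. At an unadjusted p under 0.05, 35 members were lower in field larvae, against 8.67% of all transcripts, and 2 were higher, against 6.91%. Ranking by t favours transcripts with a small spread within groups. The median within-group SD on the log2 scale was 0.24 in the module and 0.32 over ranked transcripts, and the part of that spread in the counts was not tested. Without restricted replicate 4, 22 members were called lower in field larvae, against 2.91% of all transcripts, and 1 higher, against 3.22%.

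PmetTSAr1.1-008776 fell to 12.8 ± 3.67 CPM in field larvae, against 19 ± 4.38 CPM in laboratory larvae (SD, n = 8 each; log2 fold change -0.58, SE 0.0843, edgeR adjusted p = 0.00288). Within each level of the module the values did not overlap: worker-reared larvae reached 18.2 CPM where restricted larvae began at 20.3 CPM, and foundress-reared larvae reached 10.2 CPM where ad libitum larvae began at 13.7 CPM. The call held under each of 22 alternative settings, with adjusted p from 6.31e-08 to 0.0123.

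PmetTSAr1.1-009293 averaged 2.84 ± 1.71 CPM in field and 5.22 ± 2.87 CPM in laboratory larvae (SD, n = 8 each; log2 fold change -0.88, SE 0.185, edgeR adjusted p = 0.0359). The highest worker-reared larva, at 6.16 CPM, exceeded the lowest restricted larva, at 4.96 CPM, while every foundress-reared larva was below every ad libitum larva. The call was lost in 12 of 22 settings, with adjusted p from 0.0017 to 0.0887.

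PmetTSAr1.1-015526 measured 9.51, 13.5, 9.68 and 9.82 CPM in worker-reared and 6.77, 7.65, 8.29 and 6.59 CPM in foundress-reared larvae. Laboratory larvae had 28.1, 21.6, 44.3 and 13 CPM when restricted and 8.94, 11, 10.9 and 8.81 CPM when fed ad libitum. Its mean was 8.97 ± 2.22 CPM in field and 18.3 ± 12.5 CPM in laboratory larvae (SD, n = 8 each; log2 fold change -0.88, SE 0.192, edgeR adjusted p = 0.0425). Most of that gap in CPM lay in the restricted larvae, which averaged 26.7 CPM against 10.6 CPM in worker-reared larvae. Every ad libitum larva was also above every foundress-reared larva, with means of 9.9 and 7.33 CPM. The call was lost in 14 of 22 settings, with adjusted p from 0.00242 to 0.115.

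PmetTSAr1.1-027862 was the member called higher in field larvae, and its smaller difference was among the 4 largest in the module. It measured 9.31, 6.03, 3.74 and 4.98 CPM in worker-reared and 2.6, 1.46, 3.28 and 2.05 CPM in foundress-reared larvae. Restricted larvae had 1.97, 1.81, 3.42 and 4.22 CPM and ad libitum larvae 1.42, 0.699, 0.759 and 0.756 CPM. Its mean was 4.18 ± 2.56 CPM in field and 1.88 ± 1.31 CPM in laboratory larvae (SD, n = 8 each; log2 fold change 1.22, SE 0.259, edgeR adjusted p = 0.0383). Foundress-reared larvae here reached the levels of restricted larvae, and restricted replicate 4 was the highest of its group. The call was lost in 13 of 22 settings, with adjusted p from 0.000795 to 0.0934.

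The calls of the last 3 transcripts lay near the threshold. Of 16 omissions of 1 library, 12 ended the call of PmetTSAr1.1-027862, 12 that of PmetTSAr1.1-009293 and 13 that of PmetTSAr1.1-015526. The log2 fold changes without 1 library ran from 1.07 to 1.37, from -1.01 to -0.825 and from -0.996 to -0.705 in the same order of transcripts, so their sign held.

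Restricted replicate 4 was the lowest restricted larva in 67 of the members and the highest in 4, where over all ranked transcripts the shares were 36% and 35.3%. It lay above the ad libitum mean in all 100 members, which was nearly fixed in advance because the members were ranked with this larva included. It lay nearer to that mean than to the mean of the other 3 restricted larvae in 55 of them. The median member stood 0.31 above the ad libitum mean on the log2(CPM + 0.5) scale in restricted replicate 4 and 0.71 above it in the other restricted larvae. Its 10 most abundant transcripts held 7.58% of its counts, against 11.5% to 18.7% in the other restricted larvae. In the ad libitum group, replicate 3 was the lowest larva in 53 members, against 40.5% of ranked transcripts, and its 10 most abundant transcripts held 28.1% of counts, against 8.68% to 14.1% in the rest of the group. In the field, the 10 most abundant transcripts held 7.59% to 10.2% of counts in worker-reared larvae and 10% to 32.1% in foundress-reared larvae. The part of this composition in the members' levels was not tested.

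A list ranked without a larva can be read in that larva, whose values it did not use. For each larva the ranking was repeated on the other 15, and the 100 top transcripts were placed by whether the larva lay nearer to the mean of its own group or to that of the paired group. Worker-reared larvae lay nearer to their own group in 73, 83, 68 and 85 of 100 transcripts, where all ranked transcripts gave 59%, 49.8%, 63.1% and 63.6%. Foundress-reared larvae did so in 57, 92, 61 and 80, against 55.9%, 66.4%, 40.8% and 60.5% of all ranked transcripts.

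Restricted larvae lay nearer to their own group in 80, 86, 51 and 14 of 100, against 69%, 73.5%, 61.3% and 24.4% of all ranked transcripts. Ad libitum larvae did so in 74, 84, 90 and 70, against 66.9%, 73.8%, 44.1% and 66.2%. The lists thus placed 14 larvae with their own group more often than ranked transcripts at large did, and restricted replicates 3 and 4 less often. Foundress-reared replicate 1, at 57 against 55.9%, was close to that share. The lists overlap in larvae and transcripts, so the 14 placements are not independent, and no test was made of them. Restricted replicate 4 lay a median 0.04 above the ad libitum mean on the log2(CPM + 0.5) scale in the list ranked without it, where the groups' means stood 0.64 apart. When that larva was left out of every list, the other 15 placed with their own group in 54 to 96 of 100 transcripts, with restricted replicate 3 at 60 against 59.5% of all ranked transcripts. Foundress-reared replicate 1, at 54 against 55.9%, and worker-reared replicate 3, at 63 against 63.1%, then lay just under the share of all ranked transcripts.

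**Figure D5:**
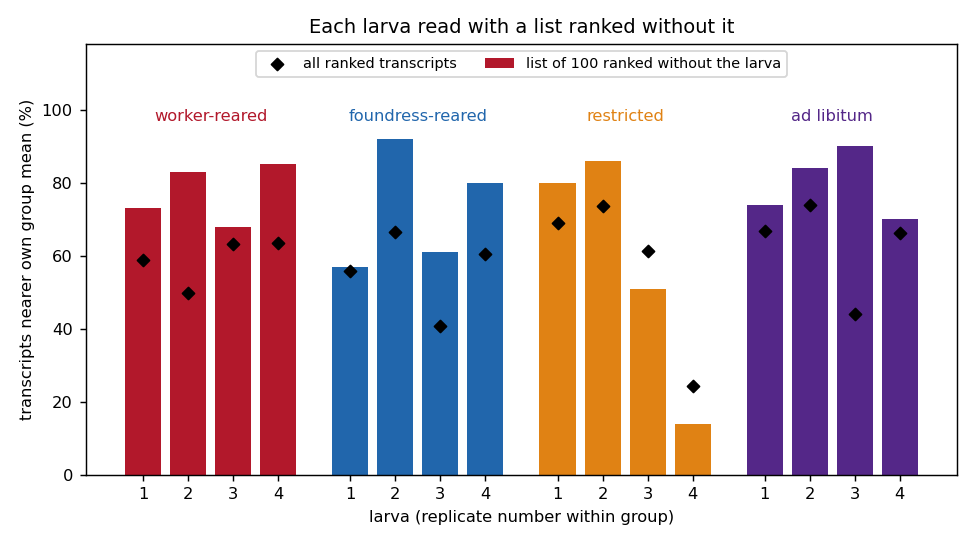
Bars give, for each larva, the number of 100 transcripts ranked without it in which it lay nearer to its own group mean than to the paired group mean, and diamonds the same share in percent over all ranked transcripts. Restricted replicate 4, at 14, is the lowest bar and lies below its diamond at 24.4%.

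The list itself changed with the larvae that entered it. Omission of 1 larva kept from 44 members, without restricted replicate 4, to 83, without worker-reared replicate 2. Those kept were 65 without foundress-reared replicate 1, 66 without restricted replicate 1 and 56 without restricted replicate 3. Without restricted replicate 4 the members had a median rank of 110.5 and none ranked below 594 of 24062. That was largely fixed in advance, since the remaining larvae were among those that chose the members.

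Other identifiers near the members leaned the same way in part. Apart from the pair described above, PmetTSAr1.1-007745 with PmetTSAr1.1-007746 and PmetTSAr1.1-014078 with PmetTSAr1.1-014079 were members with consecutive identifiers. PmetTSAr1.1-014078 averaged 2.26 ± 0.484 CPM in worker-reared and 1.33 ± 0.24 CPM in foundress-reared larvae, with 3.62 ± 1.09 CPM under restricted and 1.59 ± 0.502 CPM under ad libitum feeding. PmetTSAr1.1-014079 averaged 1.89 ± 0.261 CPM in worker-reared and 1.04 ± 0.228 CPM in foundress-reared larvae, with 2.77 ± 0.508 CPM under restricted and 1.33 ± 0.387 CPM under ad libitum feeding (SD, n = 4 each). Their ratio ran from 0.957 to 1.62 over the 16 larvae, and that of PmetTSAr1.1-007745 to PmetTSAr1.1-007746 from 0.578 to 1.32. Of 147 ranked transcripts whose number was next to a member's, 47 (32%) had both t values above 0, against 24.5% of all ranked transcripts, and 7 (4.76%) had both above 2, against 1.85%. These t values come from the same larvae that chose the members, and neighbours may share reads with members. The shares are a description, with no test.

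Within groups the members shared no larger part of their variation than ranked transcripts at large, although restricted replicate 4 was the lowest of its group in 67 of them. The first principal component of the members' deviations from the group means, each transcript scaled to equal variance, held 28.9% of the variance, against 34.8% over all ranked transcripts. The second held 13.6%, against 14.2%. These shares were compared without a test, and the part of the ranking by t in them was not tested.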

How the data were processed

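The authors deposited whole-number counts of reads per assembled transcript, 1 column per larva, with no normalization in the values; every column was matched to a larva. Bowtie2 and eXpress are named, without versions, in the submitters' processing notes. How eXpress divided reads between similar transcripts, the source of the assembly and the use of strand are not stated in the labels.

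CPM were computed with TMM factors from transcripts passing filterByExpr by group (36337 of 74517). The field minus laboratory contrast was fitted in edgeR 4.0.16 (R 4.3.3) with 4 group means, the robust quasi-likelihood test (12 residual degrees of freedom) and Benjamini-Hochberg adjustment, called under 0.05. The procedure was tested on simulated counts. The planted members there had larger differences than any member here, so that test does not cover differences of the size reported. DESeq2 1.42.0, limma 3.58.1, other scalings, filters and pseudocounts, and omission of each library served as alternatives. No 2 libraries agreed within sampling noise (lowest chi-square per degree of freedom 34.5 over 120 pairs).

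The members and choices were made with earlier results of these data known. Transcripts named are ranks 1 to 10, the 3 nearest either side of rank 100, the 4 with most counts, the 4 with the largest smaller difference, those called between field and laboratory, and consecutive identifiers. PmetTSAr1.1-003336 was named after its values were seen. Gene lists and cell type markers were not run, since no identifier has a gene name.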

Additional observations from a re-analysis of the deposited data

Results flagged for a closer look

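Of 116 sets of 4 values examined, 6 contained a value that stood well apart, where 5.8 would be expected if the sets were independent. The sets share the same larvae, so the count does not show whether these values arose by chance. The mean member level of restricted replicate 4 was 0.128 above the 16-larva mean on the log2 scale, whereas the remaining restricted larvae lay between 0.515 and 0.566. PmetTSAr1.1-020142 in that larva was at 3.31 CPM, whereas the other restricted larvae lay between 4.84 and 5.14 CPM. PmetTSAr1.1-003336 was at 42.3 CPM in the same larva, with its group otherwise between 46.7 and 47 CPM. PmetTSAr1.1-015526 reached 13.5 CPM in worker-reared replicate 2, with its group otherwise between 9.51 and 9.82 CPM. PmetTSAr1.1-009293 was at 2.28 CPM in ad libitum replicate 3, with its group otherwise between 2.94 and 3.04 CPM. PmetTSAr1.1-027862 was at 1.42 CPM in ad libitum replicate 1, with its group otherwise between 0.699 and 0.759 CPM.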

How the results depend on the processing

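With edgeR and TMM 356 transcripts were called between field and laboratory larvae, 106 of them higher in the field. DESeq2 called 1155, 482 of them higher, and 11 members lower (1.85% of all transcripts). Upper quartile scaling called 6 members lower (0.76% of all), as did a filter at a mean of 1 CPM (0.797% of all), with which 67 transcripts were called higher. limma voom called 0 members higher (2 at an unadjusted p under 0.05, edgeR and DESeq2 1). Omission of 1 library gave 193 (without restricted replicate 2) to 2277 calls (without restricted replicate 4), with 61 to 1195 higher. Members called numbered 0 to 1 higher (0.163% to 3.22% of all transcripts) and 1 to 22 lower (0.353% to 2.91%). In the 12 omissions with 0 higher in edgeR, 1 to 4 had an unadjusted p under 0.05. The members with a negative fold change numbered 75 to 82 under all alternatives run. Ranking by the signed root of edgeR's F kept 49 of the 100 members, and omission of 1 library 44 to 83. The causes were not tested.

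The differences of the 27 named transcripts within both pairs kept their sign under each scaling, pseudocount and omission tried. That outcome was largely fixed by the choice of transcripts, since both of their t values were high in these same larvae. Replicate numbers follow the order of the records. No paired analysis was possible because these numbers do not link larvae across groups. Depth limits the members of low CPM, most of all those near 1 CPM, where counting error is largest relative to the level.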
